A study of Mus musculus with 2 samples.

Results

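The Hox genes were examined as 4 clusters of homeobox transcription factor genes in the binding profile of Rfx6, and were chosen as the protein-coding mouse genes named Hoxa, Hoxb, Hoxc or Hoxd with a number. The annotation held 39 such genes among 22350 protein-coding genes, since Hoxa3 was entered under 2 identifiers and was counted once. A peak was taken as a Hox peak when its summit, the base of highest read pile-up, lay between the outer ends of the first and the last Hox gene of a cluster, and as a flank peak when it lay within 100 kb of those ends. These criteria gave 13 peaks inside the clusters and 8 in the flanks, together 21 of the 23308 peaks in the list.

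The profile came from chromatin immunoprecipitation sequencing (ChIP-seq) in Min6b1, an insulin-secreting mouse β cell line, grown in 25 mM glucose. Cells were transfected with 24 µg of a plasmid, pCMV-Tag2A-3HA-Rfx6, which drives Rfx6 with a triple HA tag from a viral promoter, and were harvested after 2 days for precipitation with the HA antibody 12CA5. The second library, the control, was labelled Min6b1 cells and precipitated with the same antibody, although the growth text attached to it also describes the transfection. The tagged protein was overexpressed, and each condition had 1 library, so no difference has a replicate check and no test was made. The peak caller counted 49443917 reads in the 3HA-Rfx6 library, of which 33949757 remained after removal of duplicates, and 16911298 in the control, of which 3567375 remained. The control therefore lost 79% of its reads as duplicates and the 3HA-Rfx6 library 31%, and the fold values below rest on that shallow control.

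Hox proteins carry a homeodomain and give cells their identity along the head to tail axis of the embryo. Their genes lie in order along each chromosome, with low-numbered paralogs, expressed early and anteriorly, at the 3′ end and high-numbered paralogs, expressed late and posteriorly, at the 5′ end. In cells that do not use them, the clusters are typically covered by Polycomb proteins. Rfx6 is a winged-helix factor of the pancreatic endocrine lineage, and Rfx proteins bind the X-box, an inverted repeat of a short arm.

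The sequences under the summits are shown first, with the X-box letters found in them. A strict form of the X-box, with both arms close to the consensus, occurred near the summit, in a window of 200 bases, in 1 of the 21 peaks, while the share over the whole list was 6.42%, which is close. It lay in the flank of the Hoxa cluster at chr6:52088024-52088036, 26 bp from the summit, and is in capitals in the first sequence below. The 2 peaks with the most reads, 1 between Hoxa6 and Hoxa7 and 1 in the coding exon of Hoxb13, had no strict X-box and no arm, and are shown without capitals. The fourth window, upstream of Hoxb9, held a pair of facing arms that lie further apart than the strict form allows. All 4 are read on the + strand of mm9 with the summit in the middle.
Hoxa cluster flank, chr6:52087898-52088097: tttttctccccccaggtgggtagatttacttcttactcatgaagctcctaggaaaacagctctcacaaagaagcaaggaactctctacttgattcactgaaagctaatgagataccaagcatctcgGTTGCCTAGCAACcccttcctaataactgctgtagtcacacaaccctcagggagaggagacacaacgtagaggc
Hoxa6 to Hoxa7, chr6:52162188-52162387: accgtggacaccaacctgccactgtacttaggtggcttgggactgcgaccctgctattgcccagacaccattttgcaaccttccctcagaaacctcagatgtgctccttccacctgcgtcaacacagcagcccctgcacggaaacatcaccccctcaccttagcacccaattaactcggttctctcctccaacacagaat
Hoxb13 coding exon, chr11:96056050-96056249: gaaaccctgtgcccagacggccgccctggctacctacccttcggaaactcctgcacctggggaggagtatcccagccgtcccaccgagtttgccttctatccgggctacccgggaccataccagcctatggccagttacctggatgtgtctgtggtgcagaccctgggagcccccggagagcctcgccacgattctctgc
Hoxb9 upstream, Gm53 intron, chr11:96120413-96120612: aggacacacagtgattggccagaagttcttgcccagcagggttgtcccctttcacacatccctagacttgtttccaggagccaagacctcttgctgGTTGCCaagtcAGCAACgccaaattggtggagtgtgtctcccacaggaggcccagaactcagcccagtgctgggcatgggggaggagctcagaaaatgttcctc

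A single arm, GTTGCC or GTTGCT on either strand, was more frequent. This search was chosen after the sequences had been seen, and its letters are also those of an arm of the strict and of a relaxed X-box. An arm was present in 9 of the 21 Hox and flank windows, against 50.6% of the windows of all peaks and 15.7% of windows placed 1 kb to the right of them. In 7 of the 9 peaks an arm lay within 10 bp of the summit, while over all peaks with an arm 30.8% had one this close. The 10 bp limit was part of this later search and was not set in advance. With 9 peaks the difference is a description only and was not tested. The windows were not checked for repeated sequence. None of the 5 peaks within 1 kb of a protein-coding transcript start held an arm, against 40.9% of all peaks near starts. Of the 16 others 9 did, against 53.2% of all peaks away from starts. The 6 close arms not printed above are given here with 8 bases on each side, read on the strand of the arm, with the arm in capitals. The one labelled Hoxc4 flank belongs to a peak 83.2 kb beyond the cluster end.
Hoxa11 upstream, arm chr6:52200047-52200052, − strand: tgcttatgGTTGCCcatgtgac
Evx1 3′ flank, arm chr6:52268961-52268966, + strand: aggtttggGTTGCCtagcaggg
Ttll6 intron, arm chr11:96002295-96002300, + strand: ttgttacaGTTGCCctcctgac
Mir196a-1 upstream, arm chr11:96125271-96125276, + strand: cctagcagGTTGCTaggagccc
Hoxc4 flank, arm chr15:102950503-102950508, + strand: accatgtgGTTGCTgggaactc
Hoxd10 intron, arm chr2:74530797-74530802, + strand: tgaacagaGTTGCCaccccagc

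The relaxed X-box, which allows far more letters, matched 7 of the 21 windows and 5 of the 13 within clusters. Over all peaks 45.9% matched it, as did 22.8% of the windows 1 kb to the right, so that a match says little. In 8 of the 21 peaks neither an X-box of either form nor an arm was found. Across the 492 kb of the 4 cluster bodies there were 3 strict X-boxes, 2 in Hoxb and 1 in Hoxd, and 0 of the 3 overlapped any part of a peak. This is 6.1 per Mb, against 13.1 per Mb over the autosomes. A match is a description of letters and does not show binding.

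The 13 cluster peaks were mostly below the middle of the list in height. Their reads ran from 31 to 163 with a median of 57, against 24 to 3489 with a median of 73 over all peaks. Of the 13, 5 exceeded the median of all peaks in reads and 6 exceeded it in fold enrichment, the ratio of reads to the local expectation that the peak caller derives from the control. None of the 13 and none of the 8 flank peaks was in the top 10% of all peaks by reads, which began at 182. The fold values in the clusters ran from 4.47 to 16.17 with a median of 7.63, against a median of 8.54 over all peaks. The flank peaks had 39 to 137 reads with a median of 54.5.

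**Figure D1:**
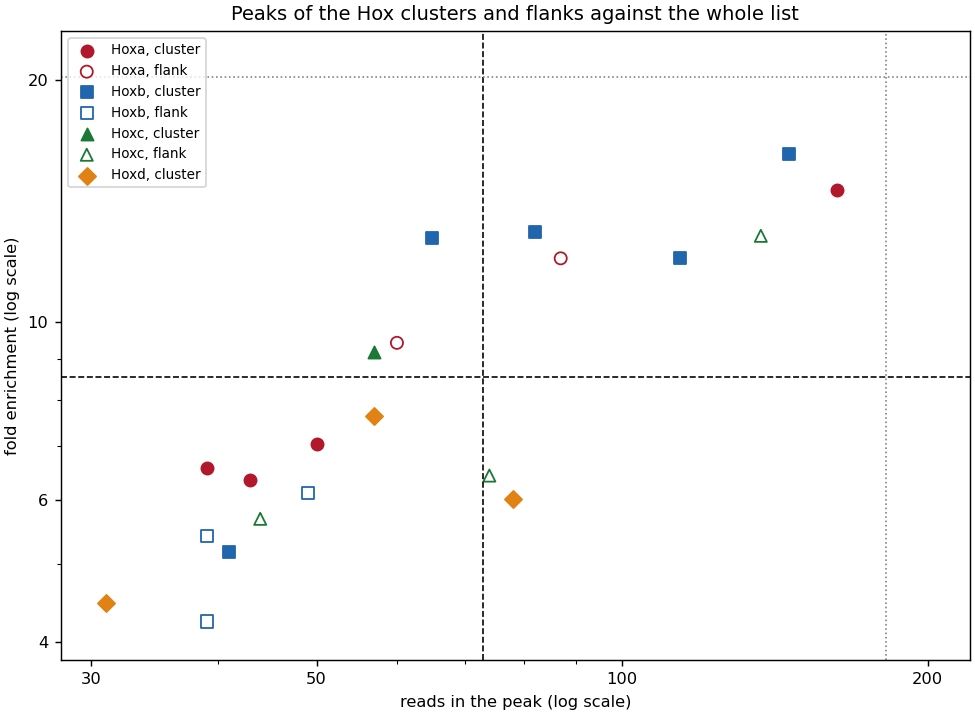
Reads (x axis, log scale) against fold enrichment (y axis, log scale) of the 21 peaks, with filled symbols for peaks inside a cluster and open symbols for flank peaks. Dashed lines mark the medians of all 23308 peaks (73 reads, 8.54-fold) and dotted lines their 90th percentiles (182 reads, 20.2-fold), which no Hox or flank peak reached.

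In the Hoxa cluster (chr6:52105366-52210874, 11 Hox genes), 4 peaks were found inside and 2 in the flanks. The highest of all 21 peaks by reads, with its summit at chr6:52162288, had 163 reads, a 14.59-fold enrichment, a score of 535.01 (the caller's p-value on a negative log10 scale, multiplied by 10) and a false discovery rate (FDR) of 3.28%. Of all peaks, 13% had as many reads. It lay 933 bp upstream of the longest Hoxa6 entry, a noncoding transcript, and 2.2 kb from Hoxa7. Both genes specify thoracic levels of the axis. The annotation places it in an intron of Hoxa3, because a long Hoxa3 transcript starts 778 bp upstream of it and runs through Hoxa4, Hoxa5 and Hoxa6. A second peak in Hoxa3 had 43 reads and a 6.36-fold enrichment, 1.47 kb upstream of another Hoxa3 start and 4.35 kb from Hoxa4.

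The other 2 Hoxa peaks lay between Hoxa11, which patterns the forearm and the uterus, and Hoxa13, which patterns the digits and the hindgut. One, 3.83 kb upstream of Hoxa11, had 50 reads and a 7.06-fold enrichment. The other, 4.5 kb from Hoxa13, had 39 reads and a 6.59-fold enrichment. Hoxa2, which patterns the hindbrain, had its nearest summit 19.9 kb away. Those of Hoxa9 and Hoxa10 were 10.8 and 9.2 kb away, and that of Hoxa5 7.7 kb.

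In the flanks of Hoxa, the peak with the strict X-box had 60 reads and a 9.42-fold enrichment and lay between genes. The other flank peak had 87 reads and a 12-fold enrichment and lay 0.592 kb past the 3′ end of Evx1, an even-skipped homeobox gene linked to the cluster. Both were thus higher than the pair between Hoxa11 and Hoxa13.

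In the Hoxb cluster (chr11:96055630-96229570, 10 Hox genes), 5 peaks were found inside and 3 in the flank. The peak at Hoxb13, a gene of the tail bud and prostate, had 146 reads, the highest fold (16.17) and the highest score (582.29) of the 21, with an FDR of 3.43%. Its summit fell in the coding exon, 520 bp downstream of the start. A peak of 82 reads and 12.95-fold lay 9315 bp downstream of the same start, in an exon of the noncoding gene Gm11538.

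Between Hoxb13 and Hoxb9, 2 further peaks lay in Gm53, a gene of unknown role. The first, 12258 bp upstream of the Hoxb9 start, had 65 reads and a 12.71-fold enrichment. The second, 7492 bp upstream of that start, had 114 reads and a 12-fold enrichment, and overlapped the hairpin of Mir196a-1. The last Hoxb peak, between Hoxb6 and Hoxb5, had 41 reads and a 5.18-fold enrichment, 576 bp upstream of the Hoxb5 start and 450 bp past the end of Hoxb6. From there to the end of the cluster, over 66.2 kb, no summit was found at Hoxb4, Hoxb3, Hoxb2 or Hoxb1, the last being a hindbrain gene 63.7 kb from the nearest summit. The 3 flank peaks lay in introns of Ttll6, a tubulin ligase gene, with 49, 39 and 39 reads and 6.12-, 5.41- and 4.24-fold enrichment.

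In the Hoxc cluster (chr15:102751534-102867274, 9 Hox genes), 1 peak was found inside. It had 57 reads and a 9.18-fold enrichment, and lay 4.77 kb from Hoxc12, on the side of Hoxc11. The 93.5 kb from it to the end of the cluster, which hold Hoxc11, Hoxc10, Hoxc9, Hoxc8, Hoxc6, Hoxc5 and Hoxc4, had none, and Hoxc5 lay 70.4 kb from a summit, the farthest of the 39 genes. Hoxc13, a hair follicle gene, was 14.6 kb from it. Beyond the Hoxc4 end, 3 flank peaks had 137, 44 and 74 reads and 12.8-, 5.69- and 6.44-fold enrichment, all of them intergenic and the nearest 57.1 kb from the cluster.

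In the Hoxd cluster (chr2:74506367-74603200, 9 Hox genes), 3 peaks were found inside and 0 in the flanks. All 3 lay in the 5′ part, which patterns the limb and genital bud. The peak 476 bp upstream of Hoxd12 had 31 reads and a 4.47-fold enrichment, the fewest reads of the 21, and 99.7% of all peaks had as many. At Hoxd10, a peak in an untranslated or noncoding exon, 111 bp from the start, had 78 reads and a 6.03-fold enrichment. An intronic peak of the same gene, 1664 bp from the start, had 57 reads and a 7.63-fold enrichment. No summit was found in the last 72.4 kb, and Hoxd1 lay 70.2 kb from the nearest.

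**Figure D2:**
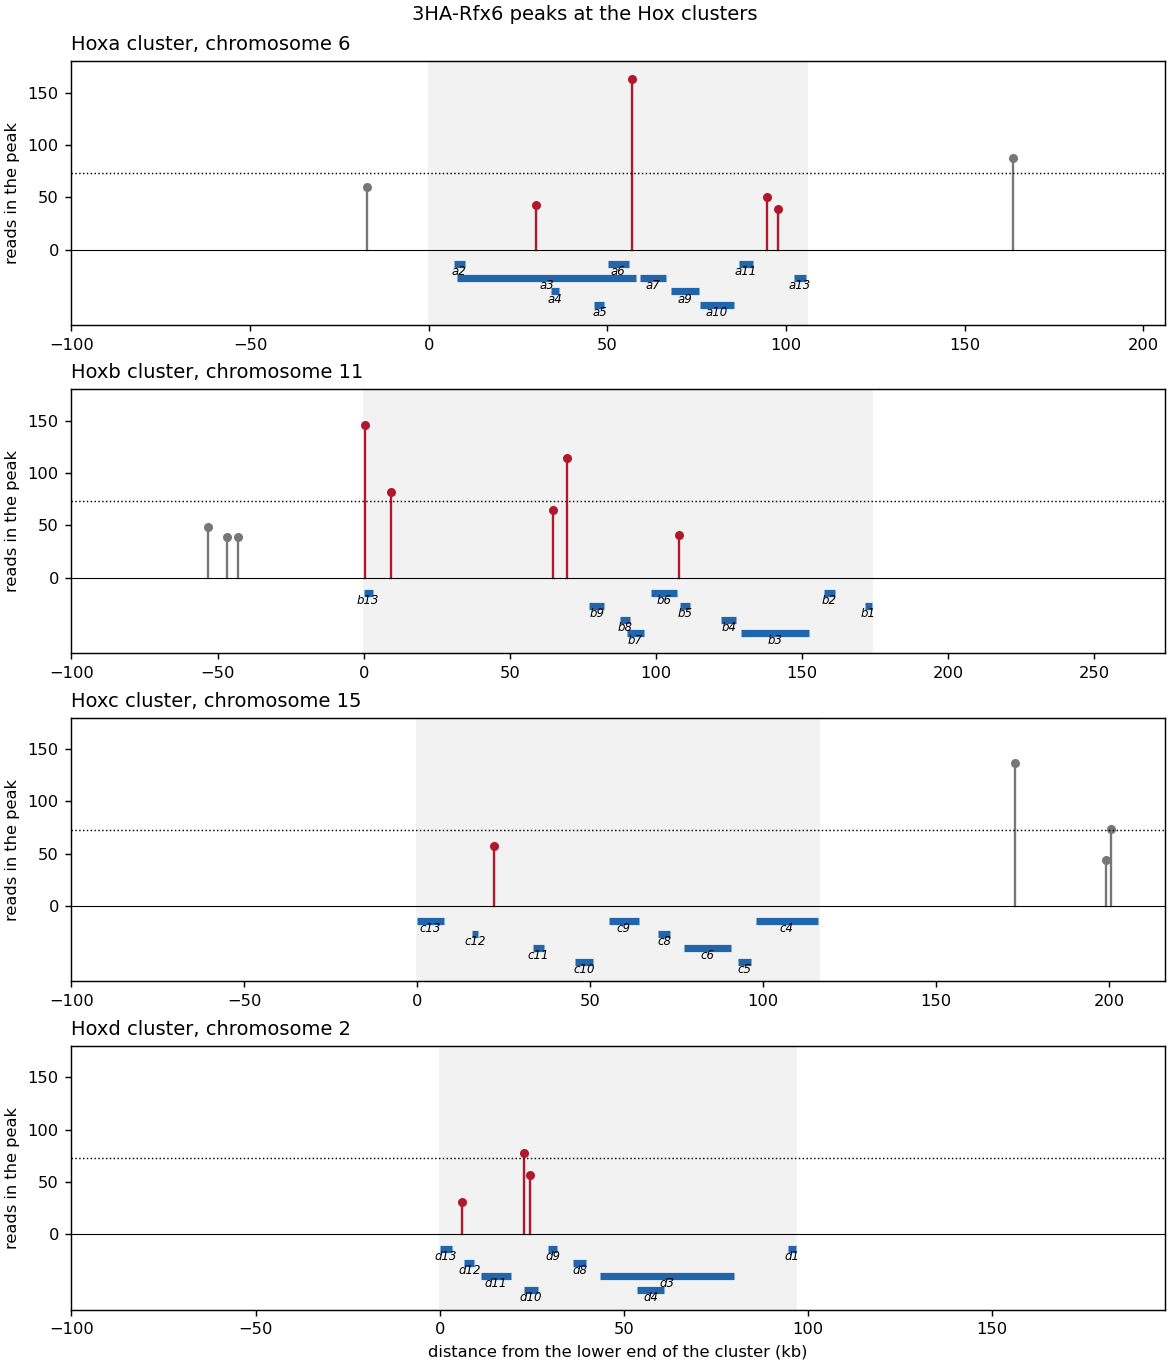
Peaks along the 4 clusters. The x axis is the distance in kb from the lower end of each cluster, the y axis the reads in each peak, blue bars with a label are Hox genes, the grey area is the cluster, red marks are cluster peaks, grey marks flank peaks, and the dotted line is the median of all peaks (73 reads). Hoxb, Hoxc and Hoxd have no peak in their last 66.2, 93.5 and 72.4 kb.

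The weaker peaks had the lower FDR, and this was not particular to the Hox peaks. Over the whole list the median FDR was 3.06%, and in the upper 10% of all peaks by score it was 4.93%. A lower FDR here therefore does not mark a stronger peak. Sorted by score, FDR rose at each step over the first 19 of the 21 peaks, and it was lower again only at the 2 peaks of the highest score, with 3.28% and 3.43%. Across the 21 it ran from 1.79% to 4.61%, with the lowest value at the Hoxd12 peak (31 reads) and the highest at the strongest Hoxc flank peak (137 reads). None of the 21 had an FDR of 1% or less, and 10 of all 23308 peaks (0.0429%) had one. With the score limited to the upper 50% of all peaks, 4 of the 13 cluster peaks remained, and with a fold of at least 10 there were 5.

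Of the 13 cluster peaks, 4 lay in introns of protein-coding genes, 4 between genes, 2 in untranslated or noncoding exons of protein-coding genes, 1 in a coding exon, and 2 in an exon and an intron of noncoding genes. Within 1 kb of a Hox transcript start lay 5 of 13, against 21% of all peaks that were within 1 kb of any protein-coding start. These 5, at Hoxa3, Hoxb5, Hoxb13, Hoxd10 and Hoxd12, had 163, 41, 146, 78 and 31 reads, and their median of 78 was close to the 82 of all 4902 such peaks. The other 8 lay 1.47 to 12.3 kb from a Hox start, with 39 to 114 reads. The 21% covers the whole genome, stretches with few genes included, so it is not matched to the clusters, where gene starts lie close together.

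The windows of the cluster peaks were richer in CpG than those of the list, and close to the clusters as a whole. A summit was called CpG-rich when the 300 bases around it had a GC content of at least 50% and a CpG ratio, observed over expected, of at least 0.6. The median CpG ratio was 0.463 in the 13 cluster windows, 0.223 in the 8 flank windows and 0.226 over all peaks. Over the whole length of the clusters it was 0.477 in Hoxa, 0.46 in Hoxd, 0.357 in Hoxc and 0.349 in Hoxb. The median GC content was 60% in the clusters against 53.3% over all. CpG-rich summits numbered 3 of 13 in the clusters and 0 of 8 in the flanks, against 16% of all peaks. Among peaks at starts, 63.6% of the list were CpG-rich and 1 of the 5 Hox peaks was, at Hoxd10.

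A gene had a peak if a summit fell between points 5 kb outside its ends. By this measure 15 of the 39 Hox genes (38.5%) had one, against 42% of all protein-coding genes and 41.6% of genes in the same range of length (1853 to 49981 bp), which is close to the background. The count fell to 7 with a limit of 1 kb and to 8 when each peak was given to its nearest Hox gene, since 6 of the 10 peaks within 5 kb of a Hox gene were near more than 1. A summit within 1 kb of a transcript start was found for 5 Hox genes (12.8%), against 22.6% of all genes. CpG-rich starts, in the 500 bases around the start, were present in 21 Hox genes, and 7 of these 21 had a peak within 5 kb, against 56.6% of all genes with such a start. Of the 18 Hox genes without a CpG-rich start 8 had one, against 28.7% of all such genes. The Hox share was thus below the background in the first set and above it in the second. Both sets are small, some of their genes share a peak, as Hoxb5 and Hoxb6 do, and the difference was not tested.

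By place in the cluster, peaks within 5 kb were found for 1 of 8 anterior genes (paralog groups 1 to 3), 5 of 15 central genes (groups 4 to 8) and 9 of 16 posterior genes (groups 9 to 13). Over all protein-coding genes the share was 42%. Neighbouring genes share peaks, so these are not independent counts. The peak of 31 reads near Hoxd12, for example, counted for Hoxd11, Hoxd12 and Hoxd13. The differences by place were not tested. The anterior gene was Hoxa3. In group 13, Hoxa13, Hoxb13 and Hoxd13 had a peak and Hoxc13 did not, with 39 reads at Hoxa13, 146 at Hoxb13 and 31 at Hoxd13. In group 12, Hoxc12 and Hoxd12 both had one (57 and 31 reads), and in group 11, Hoxa11 and Hoxd11 but not Hoxc11. Groups 2 and 8 had none among their 2 and 3 genes. No group with more than 2 genes had a peak at every member.

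**Figure D3:**
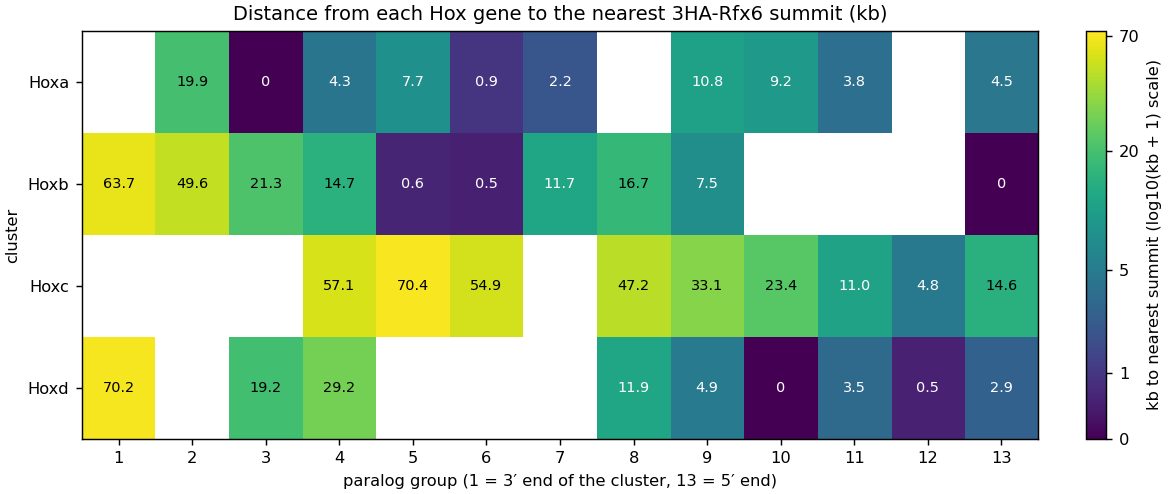
Distance in kb from each Hox gene to the nearest summit, by cluster (rows) and paralog group (columns), with no value given in white squares and colour on a log10(kb + 1) scale. Distances of 0 mark the 3 genes with a summit inside (Hoxa3, Hoxb13 and Hoxd10), and the largest distances are at Hoxc5 (70.4 kb), Hoxd1 (70.2 kb) and Hoxb1 (63.7 kb).

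The clusters also hold microRNA genes, 5 of which were examined. These small RNAs pair with target messages through their seed, bases 2 to 8, and both families target Hox messages among others. The mature sequences, from RefSeq (GRCm38.p6), fall into 2 seed groups, with the seed in capitals.
miR-196a-5p (Mir196a-1 and Mir196a-2): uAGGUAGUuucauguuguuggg
miR-196b-5p (Mir196b): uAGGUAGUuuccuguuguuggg
miR-10a-5p (Mir10a): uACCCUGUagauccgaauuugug
miR-10b-5p (Mir10b): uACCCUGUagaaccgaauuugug
Mir196a-1, at chr11:96126478-96126579 between Hoxb13 and Hoxb9, was the only one of the 5 overlapped by a peak, and the summit with 114 reads lay 1199 bp upstream of the hairpin. The distances to the nearest summit were 17.8 kb for Mir196b, 30 kb for Mir196a-2, 15.1 kb for Mir10a and 33.3 kb for Mir10b. The 2 genes of the same mature miR-196a therefore differed, with a peak at the Hoxb copy and none near the Hoxc copy.

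Each cluster was then set beside autosomal regions of its length that hold a number of gene starts within 2 of its own. The regions were taken in turn from the lower end of each chromosome without overlap, so another order could give other regions. The 4 peaks of Hoxa compared with a median of 3 in 84 regions (range 0 to 11), of which 47.6% had at least 4 (95% Wilson interval 37.3 to 58.2%, counting error only). The 5 peaks of Hoxb compared with a median of 4 in 401 regions (0 to 20), of which 43.9% had at least 5 (39.1 to 48.8%). The 3 peaks of Hoxd compared with a median of 2 in 197 regions (0 to 11), of which 47.7% had at least 3 (40.9 to 54.7%). The single peak of Hoxc compared with a median of 2 in 477 regions (0 to 15), of which 76.7% had at least 1 (72.7 to 80.3%) and 37.7% had 0 or 1. All 4 counts lay within the quartiles of their regions, which were 1 to 6 for Hoxa, 1 to 7 for Hoxb, 1 to 5 for Hoxc and 1 to 4 for Hoxd.

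**Figure D4:**
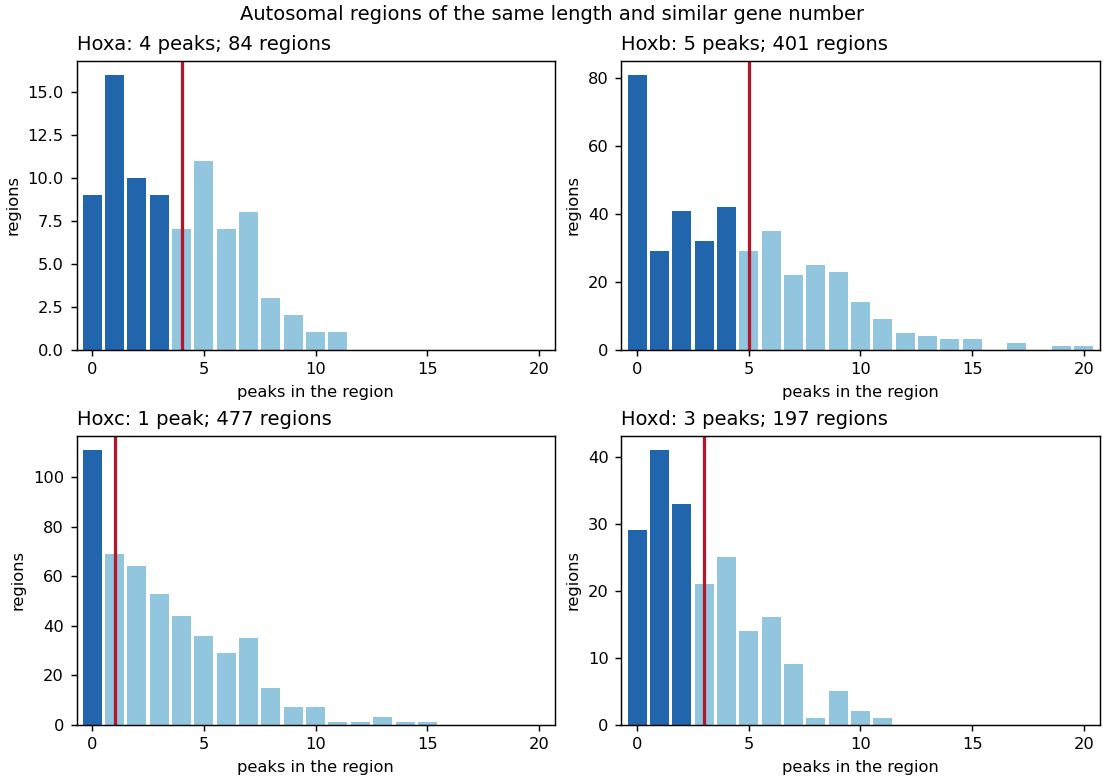
Number of regions (y axis) by number of peaks (x axis) for autosomal regions of the length of each cluster and with a gene number within 2 of it. The red line is the count in the cluster (4, 5, 1 and 3), and light bars are regions with at least as many peaks (47.6%, 43.9%, 76.7% and 47.7%).

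When the number of CpG-rich gene starts was matched as well, the Hoxc count moved to the low side, with a median of 4 in 217 regions, of which 19.8% had 0 or 1. Hoxc has 7 CpG-rich starts, Hoxa 9, Hoxd 4 and Hoxb 2. The Hoxb count moved the other way, with a median of 2 in 232 regions and 31% with at least 5. With a fold of at least 10, Hoxb kept 4 peaks and 17.2% of its 401 regions had at least as many. Hoxa kept 1, and 65.5% of its regions had at least 1. Hoxc and Hoxd kept 0, as did 44.7% and 38.6% of their regions.

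By density, the 13 peaks gave 26.4 per Mb of cluster, the flanks 10 per Mb and the autosomes 9.36 per Mb. The autosomal value includes long stretches without genes, which the regions of like gene number leave out. Per 100 kb, Hoxa had 3.79, Hoxd 3.1, Hoxb 2.87 and Hoxc 0.864 peaks.

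The empty stretches next to the clusters differed in size. The gap between neighbouring summits on the 5′ side of Hoxd, from chr2:73476577 to the Hoxd12 peak, was 1040 kb and held 6 gene starts, those of Hoxd13 and Evx2 among them. Of the 23115 autosomal gaps, whose median was 25.8 kb, 354 (1.53%) were at least as long. The longest gaps that touched Hoxb, Hoxc and Hoxa were 266, 190 and 65.8 kb, which 7.48%, 10.7% and 28.7% of gaps equalled or exceeded. These gaps were chosen as the longest at each cluster. The shares count each gap once, whatever its length. A long gap covers more of the genome, so a fixed place falls in one more often than such a share gives. The shares are therefore not a measure of how rare these gaps are, and no test was made.

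Of the 8 genes that border the clusters within 100 kb, 3 had a summit within 5 kb, near the 42% of all genes. They were Evx1 as above, Ttll6 with 3 summits and Skap1 with 3, an adaptor gene of T cells, whose highest peak (211 reads, 32.48-fold) lay at chr11:96428954, beyond the 100 kb. Evx2 had its nearest summit 14.6 kb away, and Lnp, Mtx2 and Calcoco2 had theirs 95, 69.3 and 24.9 kb away.

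Genes that work with Hox proteins were counted in the same way, with the reads of the highest peak within 5 kb. Of 9 TALE homeodomain cofactors, which bind DNA together with Hox proteins, 8 had a peak within 5 kb, against 42% of all genes. Their median length of 139 kb gives a summit more room than the short Hox genes. No share was taken for genes of like length, so the 8 of 9 is not set against a matched background. Among them Pknox1 had 183 reads and a 9.65-fold enrichment and Pbx2 117 and 16.95-fold. The nearest summit to Meis2 was 759 kb away. At a transcript start, 2 of the 9 had a peak, at Pbx4 (85 reads) and Pknox2, against 22.6% of all genes.

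Of 8 ParaHox and Evx genes, the closest relatives of the Hox genes, 4 had a peak within 5 kb, near the 42% of all genes. A peak at a start was found for 3 of the 8, against 22.6% of all genes. In the ParaHox cluster on chromosome 5, all 3 genes had one within 1 kb of a start. Pdx1, the pancreatic master regulator expressed in β cells, had 36 reads and a 4.24-fold enrichment in its highest peak within 5 kb. Of all peaks, 97.7% had as many reads. Its summit, at chr5:148082533, lay only just within 1 kb of the gene start at 148081535, and the counts at a start include it. Gsx1, a neural gene, had 43 reads and 5.18-fold, and Cdx2, an intestinal gene, 73 reads and 11.53-fold. This highest Cdx2 peak lay past the 3′ end of the gene and was not the peak at its start.

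Of 17 other clustered homeobox genes 11 had a peak and 5 had one at a start, against 42% and 22.6% of all genes. The highest peaks within 5 kb of Dlx4 (357 reads, 40.64-fold) and Six4 (316 reads, 44.02-fold) were both above any Hox peak, and Dlx3 had 157 reads. Six4 had no peak within 1 kb of a start. The median length of this list was 5.21 kb.

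Among the regulators of Hox chromatin, 3 of 13 Polycomb genes had a peak within 5 kb and 0 had one at a start. These were Cbx7 (193 reads, 33.9-fold), Bmi1 (79 reads) and Cbx6 (62 reads), all parts of the complex that reads or maintains the repressive mark, while the core genes of the complex that writes it, Ezh2, Eed and Suz12, had their nearest summits 35.6, 59.9 and 16.2 kb away. Of 10 Trithorax genes and H3K27 demethylases, which act against Polycomb, 5 had a peak, and 4 of them had one at a start. Their highest peaks within 5 kb had 158 reads at Wdr5, 106 at Mll1, 90 at Ash2l, 76 at Mll2 and 40 at Ash1l. These need not be the peaks at the starts. The highest Mll1 peak lay past the 3′ end of the gene. The median length was 54.6 kb in this list and 26.3 kb in the Polycomb list. The shares over all genes were 42% within 5 kb and 22.6% at a start, these lists are small, and no list was tested.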

How the data were processed

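Chromatin from Min6b1 cells was immunoprecipitated with the HA antibody 12CA5 and sequenced as single-end reads of 50 bases, with 1 library for 3HA-Rfx6 and 1 for the control. The submitters' processing notes name CASAVA 1.8.2, Bowtie, MACS 1.4.2 and mm9. The authors called peaks on the 3HA-Rfx6 library against the control with MACS. The deposited list gives each peak's read count, its score (the p-value on a negative log10 scale, multiplied by 10), its fold enrichment as a ratio to local background and its FDR in percent, and the file header gives library totals. The p-value limit of the caller was 1.00e-05, and 1 read was kept for each position. The control entered only through this calling. No separate values of it were used.

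Peaks were placed on GENCODE M1 genes and the NCBIM37 genome, the same build as mm9. Y was left out, and 20 chromosomes were used. The summit was start + summit − 1. Motifs were sought on both strands in 200 bases around each summit. Comparison regions started at the lower end of a gene and did not overlap each other or the clusters with their flanks. They were taken in turn from the lower end of each chromosome, and a candidate that overlapped the last one kept was skipped. Intervals and counts cover counting error only. Named were the Hox genes, every peak in the clusters or flanks, bordering genes, 5 microRNAs and the related gene lists, apart from a few genes that are not reported here. The members and lists were chosen with earlier results of these data known. Alternatives were the score, fold and FDR limits, overlap, distance, flank, region matching and motif. The functions were tested on simulated data. Python 3.11.15, numpy 2.4.6, pandas 2.3.3 and matplotlib 3.10.9 were used.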

Additional observations from a re-analysis of the deposited data

How the results depend on the processing

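Counting any overlap in place of the summit left 13 cluster peaks and 21 with flanks, and 16 lay in the clusters with flanks of 50 kb. Only peaks in the upper 50% by score gave 4 in the clusters, 6 with flanks and 4 Hox genes. A fold of at least 10 gave 5, 7 and 4, and an FDR of at most 1% gave 0 for all 3 counts. Hox genes with a summit within 1 kb of the gene numbered 7, within 1 kb of a transcript start 5, and with each peak given to its nearest gene 8 (chosen after seeing the data), against 15, and 18 at 10 kb. The relaxed X-box was found in 7 peaks and the single arm (chosen after seeing the data) in 9, against 1. The share of regions with at least as many peaks as Hoxa was 70.2% with the score limit, 65.5% with the fold limit and 59% with CpG-rich starts matched. For Hoxb it was 36.9%, 17.2% and 31%, and 49% with flanks. For Hoxc it was 100%, 100% and 95.4%, with 82.7% at equal gene number and 60.8% with flanks. For Hoxd it was 100%, 100% and 56.1%, with 71.2% with flanks. It was 100% for all 4 with the FDR limit, where the clusters had 0 peaks. The counts fall because fewer peaks enter, and with 0 peaks every region has as many. With 1 library per condition no replicate could be left out. No paired analysis was possible because each condition had 1 library and no result came from a test. The 16911298 control reads, of which 3567375 were kept, limit the fold values.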
